A study of Mus musculus with 32 samples.

Results

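The retinoic acid time course comprises 6 of the 32 arrays of a study of mouse embryonic stem cells. The members are every array of E14TG2a cells, an established mouse embryonic stem cell line, given 0.1 µM retinoic acid for 2, 4 or 6 days, with 2 arrays a day. On each of these arrays RNA of treated cells was hybridised against RNA of untreated E14 cells, which served as the reference. Array 1 of a day carried the treated sample in Cy3 and array 2 carried it in Cy5. The same layout was used for E14 cells given 1% DMSO (6 arrays) or 3 mM HMBA (hexamethylene bisacetamide, 6 arrays) for the same days; here DMSO is itself an inducer of differentiation, not a vehicle control. The other 14 arrays are single-colour arrays of cells transfected with a construct for Pou5f1 RNAi (4 arrays), Nanog RNAi (5 arrays) or the vector (5 arrays) and selected with puromycin for 3 days. No allele or transgene is given for the retinoic acid groups, and an untreated culture of days 2, 4 or 6 was not analysed here. The labels do not say whether the arrays of a day come from separate cultures, so the errors and p-values below measure the spread between arrays, which may be technical.

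Retinoic acid, a derivative of vitamin A, enters the nucleus with the help of cellular retinoic acid binding proteins and binds the receptors encoded by Rara, Rarb and Rarg. These receptors pair with retinoid X receptors on DNA at direct repeats of a short motif, and the genes they switch on first include their own receptor Rarb, the degrading enzyme Cyp26a1 and members of the Hox clusters. In embryonic stem cells the treatment ends self-renewal, and depending on dose and culture the cells take up features of extraembryonic endoderm, of neural cells or of other lineages.

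Values are deposited log ratios of treated over untreated cells, whose base is not stated and is taken as 2, so that 1 stands for a doubling. The trend of a probe is the fitted line over days 2, 4 and 6, given as day 6 minus day 2 ± its standard error (limma, 6 arrays, dye orientation as a term), and a probe rose or fell where the Benjamini-Hochberg adjusted p was under 0.05. A trend that was not called does not show that a gene did not change. A rise is therefore a rise of the ratio, which may start below 0. In these bulk samples fewer cells of a type and less RNA per cell cannot be told apart.

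The Rarb promoter is shown first because, of 301 RefSeq promoters of 222 genes that are named below or belong to the retinoid and Hox lists, only those of Rarb and Cyp26a1 held a direct repeat of the kind that retinoid receptors bind. The search took any 2 motifs in the same direction, each being AGGTCA or GGGTCA or else AGTTCA or else GGTTCA, on both strands, with a spacer of 5, 2 or 1 bases. Among all 32851 promoters of the table, each reaching from 250 bases before to 50 after the start, 0.0974% held such a repeat with a spacer of 5, 0.268% with a spacer of 2 and 0.222% with a spacer of 1. Any of these was held by 0.588% of all promoters and by 0.664% of the 301, so that the share is close to that of all promoters. Cyp26a1 had no value on the arrays used here. The window of Rarb lies at chr14:16575427-16575726 on the minus strand (GRCm38.p6), and the capitals mark the repeat with a spacer of 5, which begins 53 bases before the start. A match describes these letters only and was not tested for binding.
Rarb: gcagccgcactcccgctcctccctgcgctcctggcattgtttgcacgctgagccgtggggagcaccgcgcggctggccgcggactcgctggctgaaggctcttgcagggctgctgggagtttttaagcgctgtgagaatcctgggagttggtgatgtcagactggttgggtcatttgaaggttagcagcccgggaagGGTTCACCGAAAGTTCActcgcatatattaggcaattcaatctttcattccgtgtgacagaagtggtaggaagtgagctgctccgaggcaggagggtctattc

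Rarb was already induced on day 2 and stayed at that level. The log ratios of Rarb were 0.99 and 2.06 on day 2, 0.80 and 2.59 on day 4, and 0.64 and 2.39 on day 6, the first value of each pair being from array 1. Array 2 was higher than array 1 on each day, and the days overlapped. Its trend was -0.01 ± 0.26 (adjusted p = 0.99). A second Rarb probe was called on none of the days, with means of -0.34, -0.39 and -0.31, so that the induction rests on 1 of 2 probes.

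Of 16 measured genes of retinoid binding, metabolism and receptors, 6 were called above untreated cells on day 2 and 9 on day 6. Of all genes 15.5% were called higher on day 2 and 25.9% on day 6. A called trend between the days was seen in 1 of the 16. Crabp1, a cytosolic retinoic acid binding protein, had log ratios of 3.34 and 2.80 on day 2, 2.29 and 2.73 on day 4, and 2.57 and 2.38 on day 6. Crabp2, its relative that delivers retinoic acid to the nucleus, had 2.60 and 3.46 on day 2, 2.69 and 2.36 on day 4, and 1.60 and 2.58 on day 6. Both were high on every array, with trends of -0.59 ± 0.28 and -0.94 ± 0.30 that were not called. The short-chain dehydrogenase Dhrs3, which turns retinaldehyde back to retinol, was at 1.39 ± 0.13 on day 2, 0.02 ± 0.13 on day 4 and 0.53 ± 0.13 on day 6, and its trend of -0.86 ± 0.37 was not called. The retinol dehydrogenase Rdh10 had day means of 1.41, 1.77 and 1.13. Over the days 1 of the 16 rose and none fell, where 2.25% of all 10808 genes rose and 1.67% fell. The gene that rose was Lrat, which esterifies retinol for storage. Its log ratios were -0.95 and -1.71 on day 2, -0.70 and -1.52 on day 4, and 0.60 and -0.32 on day 6. It was below the untreated cells on the 4 arrays of days 2 and 4 and on either side of 0 on day 6, a trend of 1.47 ± 0.28, adjusted p = 0.00744. The median trend of the 16 genes was -0.06, against 0.00 over all genes. In 1 of the 16, day 4 was called below the mean of the outer days (curvature), where 1.07% of all probes had called curvature. The early class described below held 2 of the 16, against 103 of all 10808 genes.

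Genes known as retinoic acid responses followed different courses. Nrip1, a nuclear receptor corepressor, fell from the highest day 2 level among them. Its log ratios were 4.37 and 3.20 on day 2, 3.18 and 2.00 on day 4, and 3.17 and 1.75 on day 6. Every array was far above 0, and both day 2 arrays were above those of the later days, with a trend of -1.33 ± 0.29, adjusted p = 0.016. Gprc5c, an orphan G protein coupled receptor, also fell (-1.11 ± 0.27, adjusted p = 0.028). Stra8, which licenses germ cells for meiosis, had day means of 3.32, 2.07 and 2.30, and its trend of -1.03 ± 0.33 was not called (adjusted p = 0.108). Nr2f1, an orphan nuclear receptor of the COUP family, went the other way. It had log ratios of 1.00 and 0.78 on day 2, 1.34 and 2.48 on day 4, and 2.15 and 2.57 on day 6 and a trend of 1.47 ± 0.30, adjusted p = 0.0122. Of 14 measured genes of this list 1 rose and 2 fell (median trend -0.05), where 2.25% of all genes rose and 1.67% fell.

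A part of the Hox genes was raised on day 2. On day 2, 8 of 20 measured Hox genes were called higher, on day 4, 6 and on day 6, 4, against 15.5%, 19.3% and 25.9% of all genes on those days. On the same days 2, 2 and 3 were called lower. Hoxb5, of the middle of the Hoxb cluster, fell from 1.52 ± 0.15 on day 2 to 0.21 ± 0.15 on day 6 (trend -1.31 ± 0.28, adjusted p = 0.015). It was the one Hox gene of 20 whose trend was called, where 2.25% of all genes rose and 1.67% fell. Hoxa5 had day means of 1.20, 0.53 and 0.85 and Hoxc5 of 1.38, 1.72 and 1.48, without a called trend.

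The 6 arrays held between 15679 and 19806 values each, and 14655 of 21106 probes had a value on all 6 (10808 genes). The arrays of a day correlated at r = 0.15 on day 2, 0.54 on day 4 and 0.52 on day 6 across all probes, which are not independent, and arrays of like orientation on different days correlated more, at 0.61 to 0.87. Gapdh, which has 231 probes here, differed between orientations in the same way: the median log ratio was -0.86 and 0.81 on the arrays of day 2, -0.32 and 0.30 on those of day 4, and -0.85 and 0.51 on those of day 6. Averaged over orientations the Gapdh medians were -0.02, 0.00 and -0.17, and none of the 231 probes had a called trend. The fits carry orientation as a term. Of 14 measured reference genes none rose or fell (median trend -0.14).

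Over the 4 days 494 of 14655 probes (3.37%) had a called trend. Of these 276 rose (1.88%, 248 genes) and 218 fell (1.49%, 199 genes). The rise was at least 1 for 254 probes and at least 2 for 28, and the fall at least 1 for 203 and at least 2 for 12. The probe just inside the threshold was of Tpgs1 (0.99, adjusted p = 0.049) and the one just outside of Tmem183a (-0.91, adjusted p = 0.050). The count rested on the dye term, without which 6 probes were called, and on single arrays: it was 71 without array 2 of day 2, 125 without array 1 of day 6, 144 without array 2 of day 6, 1838 without array 1 of day 4 and 2963 without array 1 of day 2. With the arrays scaled to one spread it was 118, and after quantile normalisation 276.

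Among called probes, those that fell had made more of their change by day 4 than those that rose, a difference that was not tested. The median probe that fell had made 61.4% of its change by day 4, and 158 of 218 had made most of it by then. The median probe that rose had made 46.2% by day 4, and 121 of 276 most of it. Of the 218 probes that fell, 114 were called above the untreated cells on day 2 and 32 below. Of the 276 that rose, 76 were called above on day 2 and 60 below. These shares describe probes chosen by the same values and carry no test. They come from unscaled arrays and were not recomputed after scaling, which turned the split of the steps between days, as given below.

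The largest rises included placental, extracellular matrix and stress genes. Rhox6, an X-linked homeobox gene of the placenta, rose most. Its log ratios were 1.16 and 0.51 on day 2, 3.37 and 3.21 on day 4, and 5.10 and 4.35 on day 6. The days did not overlap, and the mean went from 1.79-fold over untreated cells on day 2 to 26.5-fold on day 6 (trend 3.89 ± 0.29, adjusted p = 4.3e-06). Rhox9, of the same cluster, was near 0 on day 2, with log ratios of 0.05 and 0.73 on day 2, 2.82 and 2.54 on day 4, and 3.40 and 4.10 on day 6 (trend 3.36 ± 0.33, adjusted p = 2.24e-05). Both are members of a family of similar genes, and how far their probes tell them apart was not tested. The imprinted noncoding RNA H19 had 2.53 and 2.35 on day 2, 4.70 and 5.63 on day 4, and 5.53 and 6.26 on day 6, the highest day 6 mean of all probes with a gene name at 59.5-fold (trend 3.46 ± 0.40, adjusted p = 0.000158).

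**Figure D1:**
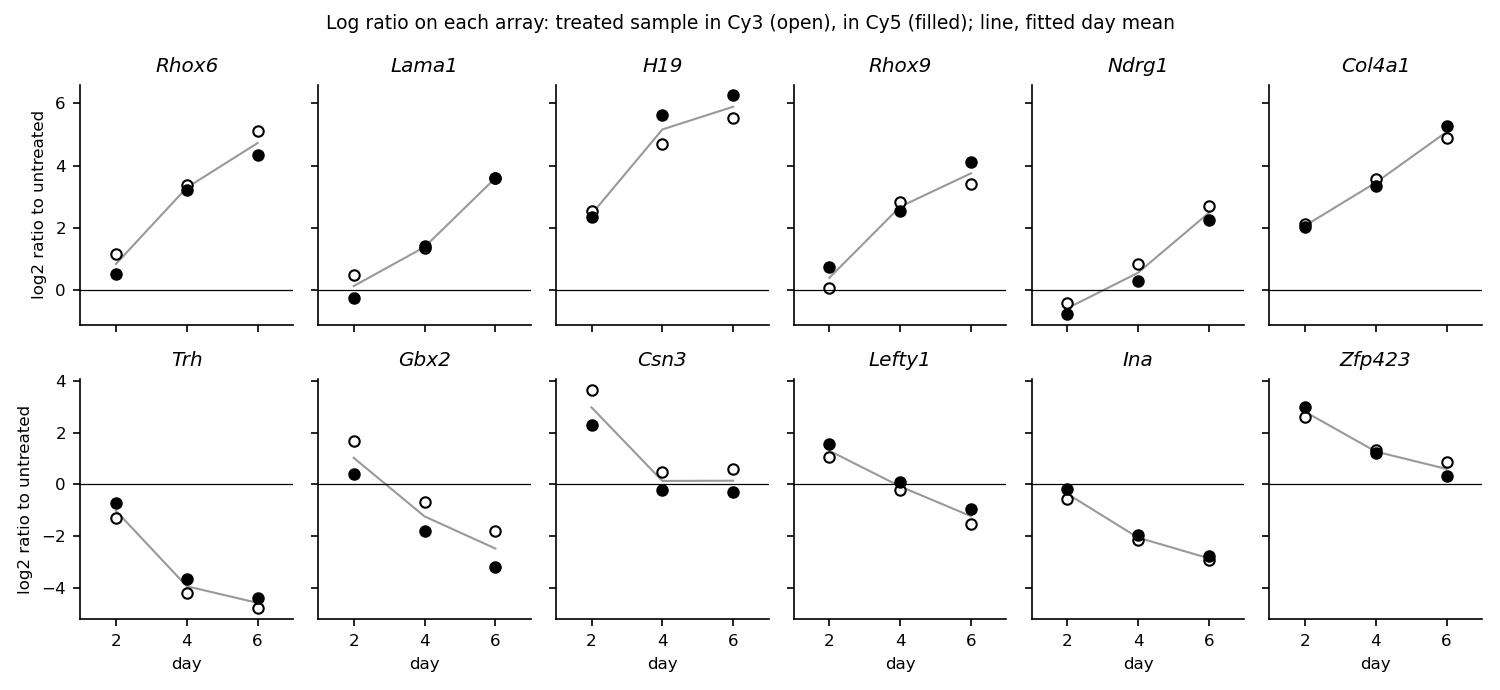
Log2 ratio to untreated cells against the day of retinoic acid for the 6 genes Rhox6, Lama1, H19, Rhox9, Ndrg1 and Col4a1 that rose (top) and the 6 genes Trh, Gbx2, Csn3, Lefty1, Ina and Zfp423 that fell (bottom). Each open circle is array 1 of a day (treated sample in Cy3), each filled circle array 2 (Cy5), and the grey line joins the fitted day means; H19 reaches 5.89 and Trh -4.60 on day 6.

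Genes of primitive endoderm, the extraembryonic layer that lays down the first basement membrane of the embryo, rose in part. Of 34 measured genes of that list 13 rose and none fell, where 2.25% of all genes rose and 1.67% fell. The list had a median trend of 0.68 against 0.00 over all genes. The laminin chain gene Lama1 had log ratios of 0.50 and -0.24 on day 2, 1.34 and 1.42 on day 4, and 3.61 and 3.59 on day 6. It was near 0 on day 2, alike on both arrays of the later days, and the days did not overlap (trend 3.47 ± 0.30, adjusted p = 5.45e-06). Dab2, an endocytic adaptor of this layer, had 1.00 and 0.08 on day 2, 1.69 and 1.65 on day 4, and 3.28 and 3.22 on day 6 (trend 2.71 ± 0.28, adjusted p = 4.43e-05). Afp, the gene of alpha-fetoprotein, had day means of 0.10, 0.29 and -0.13, and the transcription factor genes Foxa2 and Hnf4a had -0.52, -0.62 and -0.60 and -0.06, 0.11 and -0.10, none with a called trend. Other members that rose were the keratin Krt19 (2.17 ± 0.32), the thyroid hormone carrier Ttr (1.54 ± 0.28), the vitamin B12 uptake gene Amn (1.46 ± 0.27), the lysosomal protease Ctsl (1.29 ± 0.25) and the collagen chaperone Serpinh1 (1.45 ± 0.25). A second probe of Serpinh1 had an uncalled trend of -0.40 ± 0.27, and a second probe of Foxa2 had day means of 1.18, 1.10 and 1.38. Gata6, a defining factor of the layer, had a value on 1 of the 6 arrays, 2.44 on array 1 of day 2. Sox17, another, had values only on the day 6 arrays, 2.62 and 2.38.

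Part of the basement membrane genes rose. Of 21 measured genes 5 rose and none fell: Lama1 (3.47 ± 0.30), Col4a1 (3.02 ± 0.25), Col4a2 (1.99 ± 0.25), Sparc (1.86 ± 0.25) and Lamb1 (1.74 ± 0.31). The median trend of the list was 0.09, and over all genes 2.25% rose and 1.67% fell. Among other laminin chains Lama2 had a trend of 0.19 ± 0.30, Lama4 -0.25 ± 0.28 and Lama5 -0.10 ± 0.27, none called. Type IV collagen, the network of basement membranes, is built from the chains of Col4a1 and Col4a2, a pair of genes that lie head to head. The log ratios of Col4a1 were 2.12 and 2.02 on day 2, 3.56 and 3.35 on day 4, and 4.90 and 5.27 on day 6, rising to 34-fold. Those of Col4a2 were 1.62 and 1.11 on day 2, 2.38 and 2.51 on day 4, and 3.40 and 3.32 on day 6, rising to 10.3-fold. In both genes the days did not overlap and both orientations gave the same order (adjusted p = 5.2e-06 and 0.000382).

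The promoter windows of this pair are shown because both genes rose and their windows overlap around the start sites. In RefSeq (GRCm38.p6) the window of Col4a1 is chr8:11312777-11313076 on the minus strand and that of Col4a2 chr8:11312555-11312854 on the plus strand. The capitals mark the 78 bases that both windows hold, each on its own strand, most of which lie past each gene's own start. Neither window held a direct repeat of the motifs given above.
Col4a1: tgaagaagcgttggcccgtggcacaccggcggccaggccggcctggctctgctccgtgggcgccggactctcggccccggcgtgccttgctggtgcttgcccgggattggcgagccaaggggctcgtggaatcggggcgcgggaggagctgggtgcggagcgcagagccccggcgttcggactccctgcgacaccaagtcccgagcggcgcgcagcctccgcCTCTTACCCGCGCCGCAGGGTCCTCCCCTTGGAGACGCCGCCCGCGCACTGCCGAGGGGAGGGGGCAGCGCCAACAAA
Col4a2: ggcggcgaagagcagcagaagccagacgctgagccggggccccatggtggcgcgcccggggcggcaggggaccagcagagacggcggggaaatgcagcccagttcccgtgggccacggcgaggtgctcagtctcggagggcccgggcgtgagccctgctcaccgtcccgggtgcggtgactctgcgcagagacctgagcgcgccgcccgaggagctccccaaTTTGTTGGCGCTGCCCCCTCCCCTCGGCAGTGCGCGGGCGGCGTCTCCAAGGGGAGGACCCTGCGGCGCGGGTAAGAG

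Part of the trophectoderm and placental genes rose too, where over all genes 2.25% rose and 1.67% fell. Of 20 measured genes 8 rose and 1 fell, with a median trend of 0.83. Besides Rhox6 and Rhox9 these were the keratins Krt19 (2.17 ± 0.32) and Krt7 (1.49 ± 0.24), the placental genes Plac1 (1.94 ± 0.31), Esx1 (1.81 ± 0.26) and Prl2c2 (1.69 ± 0.25) and the epithelial factor Elf3 (1.03 ± 0.26). Plac1, an X-linked placental protein gene, had log ratios of 0.77 and -0.75 on day 2, 0.80 and 0.29 on day 4, and 2.19 and 1.71 on day 6. It lay on either side of 0 on day 2 and above 1 on both day 6 arrays. Gata3, a trophectoderm transcription factor, was high from day 2 on, with day means of 2.53, 2.82 and 3.34, and its trend of 0.81 ± 0.28 was not called. The lineage factors Cdx2 and Eomes had trends of -0.03 ± 0.29 and -0.11 ± 0.24, and Tead4 was the one member that fell (-1.12 ± 0.28, adjusted p = 0.0366), while its second probe had an uncalled trend of 0.55 ± 0.32. Prl2c2 belongs to a family of near-identical genes.

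Of 30 measured imprinted genes 4 rose and none fell (median trend 0.33), where 2.25% of all genes rose and 1.67% fell. The 4 were H19 (3.46 ± 0.40), Dlk1 (1.80 ± 0.31), Slc38a4 (1.70 ± 0.26) and Cdkn1c (1.62 ± 0.26). A second probe of Slc38a4 had a trend of 0.96 ± 0.30 that was not called. Cdkn1c, an inhibitor of cyclin-dependent kinases, had log ratios of 1.68 and 1.57 on day 2, 2.72 and 2.79 on day 4, and 3.26 and 3.24 on day 6. It was above 1 on every array, and the days did not overlap. Peg3 (1.47 ± 0.46, adjusted p = 0.103) was not called. Igf2, the neighbour of H19, had day means of -0.29, -0.19 and -0.64.

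Of 25 measured genes of hypoxia and glycolysis 12 were called lower and 3 higher on day 2, where 10.4% of all genes were called lower. On day 6, 11 were called higher and 4 lower, where 25.9% of all genes were called higher. Ndrg1 and Bnip3 were the 2 members of the reversing class described below. Over the days 5 rose and 1 fell (median trend 0.50), where 2.25% of all genes rose and 1.67% fell. Ndrg1, a hypoxia-induced gene, had log ratios of -0.42 and -0.76 on day 2, 0.83 and 0.28 on day 4, and 2.70 and 2.27 on day 6, below 0 on both day 2 arrays and above 2 on both day 6 arrays (trend 3.07 ± 0.27, adjusted p = 5.45e-06) and its second probe rose by 2.36 ± 0.34. Bnip3, which marks mitochondria for removal under low oxygen, had -1.37 and -2.59 on day 2, -1.36 and -2.06 on day 4, and 0.82 and 0.20 on day 6, below -1 on all 4 arrays of days 2 and 4 and above 0 on both of day 6. The prolyl hydroxylase P4ha1 (2.41 ± 0.34), the lactate transporter Slc16a3 (1.27 ± 0.26) and the stress gene Ddit4 (1.17 ± 0.28) also rose. The glucose transporter Slc2a1 had a trend of -0.26 ± 0.29 and the sensor Egln1 0.43 ± 0.30, neither called. The member that fell was the lactate dehydrogenase Ldhb (-1.18 ± 0.30).

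Of 32 measured interstitial matrix genes 6 rose and 2 fell (median trend 0.40), where 2.25% of all genes rose and 1.67% fell. Col3a1, a fibrillar collagen, had log ratios of 0.26 and -0.36 on day 2, 2.38 and 1.94 on day 4, and 2.21 and 1.90 on day 6, near 0 on day 2 and about as high on day 4 as on day 6 (trend 2.11 ± 0.41, adjusted p = 0.00844). Col1a1 (1.50 ± 0.39), Loxl2 (2.06 ± 0.29) and Plod2 (1.85 ± 0.26) rose also, while the matrix signalling gene Thbs1 (-2.03 ± 0.26) fell. Of 36 measured contractile genes 1 rose and 2 fell, against the same shares of all genes. Called curvature was seen in 4 of the 36, each with its highest mean on day 4, where 1.07% of all probes had called curvature. Acta2, smooth muscle actin, had day means of 2.99, 4.63 and 2.43, Tpm1 of 1.62, 3.51 and 2.74, Tagln of 2.26, 2.81 and 1.08 and Myh10 of 1.56, 2.69 and 1.67.

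The largest fall was of Trh, the gene of thyrotropin-releasing hormone. Its log ratios were -1.32 and -0.73 on day 2, -4.21 and -3.69 on day 4, and -4.80 and -4.39 on day 6. It was below 0 on every array, lowest on day 6, and most of its drop lay before day 4 (trend -3.57 ± 0.40, adjusted p = 0.000136). The homeobox gene Gbx2 started above the untreated cells. Its log ratios were 1.67 and 0.39 on day 2, -0.69 and -1.79 on day 4, and -1.79 and -3.19 on day 6, positive on both day 2 arrays and negative on all later ones (trend -3.52 ± 0.28, adjusted p = 5.2e-06). Csn3, the casein gene, had 3.67 and 2.31 on day 2, 0.47 and -0.20 on day 4, and 0.59 and -0.31 on day 6, a high value on day 2 only (trend -2.85 ± 0.48, adjusted p = 0.00312).

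Pluripotency genes were lower than in untreated cells at each time, and part of them fell further. Of 43 measured genes of the core and naive network 30 were called lower on day 2, 35 on day 4 and 36 on day 6, and 1, 0 and 2 higher. Of all genes 10.4% were called lower on day 2 and 15.1% on day 4, and of all probes 19.9% on day 6. Over the days 11 fell and 2 rose (median trend -0.42), where 1.67% of all genes fell and 2.25% rose. Pou5f1, which encodes Oct4, had log ratios of -1.53 and -1.09 on day 2, -1.93 and -2.15 on day 4, and -2.43 and -2.45 on day 6. It was below 0 on all 6 arrays (trend -1.13 ± 0.26, adjusted p = 0.0212). Sox2, its partner, had -0.71 and -1.56 on day 2, -0.84 and -2.50 on day 4, and -1.49 and -3.01 on day 6 (trend -1.12 ± 0.26, adjusted p = 0.0249). Nanog, the remaining core factor, had -0.43 and -0.01 on day 2, -1.32 and -0.69 on day 4, and -0.59 and 0.25 on day 6. Both day 4 arrays were lower than the other 4, and its trend was 0.05 ± 0.34 (adjusted p = 0.965).

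Some naive factors went on falling and others had no called change after day 2. Nr0b1 (-1.54 ± 0.39), Nr5a2 (-1.32 ± 0.32), Rex2 (-1.43 ± 0.25), Jarid2 (-1.26 ± 0.30) and Sall4 (-1.20 ± 0.29) fell. Fgf4, a ligand made by pluripotent cells, was low from the start with day means of -2.41, -2.21 and -2.03, as were Esrrb (-1.20, -1.52 and -1.37), Klf4 (-1.73, -2.12 and -1.55) and Tdgf1 (-2.44, -3.10 and -2.44). Their trends were 0.38 ± 0.24, -0.17 ± 0.25, 0.18 ± 0.33 and 0.01 ± 0.31, none called. The 2 members that rose belong to the LIF pathway, which sustains naive cells: the receptor Lifr (1.05 ± 0.28, adjusted p = 0.0455) and the transcription factor Stat3 (1.23 ± 0.26, adjusted p = 0.0128). Stat3 had log ratios of -0.56 and -0.89 on day 2, 0.20 and 0.15 on day 4, and 0.53 and 0.48 on day 6, negative on day 2 and positive on day 6.

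Epiblast genes, which mark the next step of embryonic ectoderm, also fell in part. Of 19 measured 7 fell and 1 rose (median trend -0.51), where 1.67% of all genes fell and 2.25% rose. Fgf5, the usual marker of that step, was raised on day 2 and lost by day 4, with log ratios of 1.38 and 0.50 on day 2, 0.12 and -0.26 on day 4, and 0.24 and -0.89 on day 6 (trend -1.27 ± 0.28, adjusted p = 0.0172). The de novo methylation cofactor Dnmt3l (-1.65 ± 0.25) and the zinc finger gene Zic2 (-1.46 ± 0.29) were in the late class described below. The kinase gene Pim2 had -1.40 and -0.86 on day 2, -1.56 and -1.69 on day 4, and -3.02 and -3.25 on day 6 (trend -2.01 ± 0.30, adjusted p = 0.00116), below 0 throughout and lowest on both day 6 arrays. Otx2 had already reached -2.09 ± 0.14 on day 2.

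Some signalling genes fell over the same days. Of 31 measured Wnt and FGF genes 8 fell and 1 rose, where 1.67% of all genes fell and 2.25% rose. The FGF carrier protein gene Fgfbp1 had 2.36 and 1.76 on day 2, 0.34 and 0.15 on day 4, and 0.22 and -0.54 on day 6 (trend -2.22 ± 0.32, adjusted p = 0.000992). The feedback inhibitors of the ERK pathway fell also: Dusp6 (-1.75 ± 0.26), Spry4 (-1.54 ± 0.26) and Spry2 (-1.28 ± 0.25). Dusp6 started above untreated cells, at 1.34 ± 0.12 on day 2, while Spry4 started below, at -0.59 ± 0.13. Fgf4 itself showed no called change after day 2. The Wnt members were Sfrp5 (-1.26 ± 0.28) and Lef1 (-1.08 ± 0.25), which fell, and the inhibitor Dkk1 (1.57 ± 0.37), which rose. Lefty1, an inhibitor and target of Nodal, had log ratios of 1.06 and 1.55 on day 2, -0.23 and 0.07 on day 4, and -1.52 and -0.95 on day 6. It was above 0 on both day 2 arrays and below 0 on both of day 6 (trend -2.54 ± 0.24, adjusted p = 2.19e-05). Nodal itself had 0.35 and 0.73 on day 2, -0.60 and 0.00 on day 4, and -1.03 and -0.63 on day 6 and crossed 0 in the same way (trend -1.37 ± 0.24, adjusted p = 0.0047). Of genes known to respond to BMP, Id2 (2.25 ± 0.36), Msx2 (1.73 ± 0.28) and Bambi (1.57 ± 0.29) rose, and Id1 (1.28 ± 0.35, adjusted p = 0.0601) was not called. Of the 29 measured genes of the Nodal and BMP pathways 3 rose and 2 fell (median trend -0.06), against the same shares of all genes.

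Of 39 measured neural and neuronal genes 5 fell and none rose (median trend -0.12), where 1.67% of all genes fell and 2.25% rose. Levels against untreated cells went both ways in this list. On days 2, 4 and 6, 12, 11 and 9 of the 39 were called higher, and 8, 13 and 12 were called lower. The neurofilament gene Ina had log ratios of -0.55 and -0.17 on day 2, -2.16 and -1.97 on day 4, and -2.95 and -2.78 on day 6, lower on every later array than on day 2 and lowest on day 6 (trend -2.51 ± 0.27, adjusted p = 9.58e-05). Crmp1 (-1.31 ± 0.27) and Nefh (-1.28 ± 0.24) fell too, as did the progenitor genes Nes (-1.21 ± 0.29) and Pax6 (-1.08 ± 0.25), although a second Pax6 probe had an uncalled trend of 0.32 ± 0.27. Nes, an intermediate filament of neural progenitors, started at 1.05 ± 0.18. The panneural factor Sox1 had day means of 0.17, 0.47 and -0.52 and the neuronal tubulin Tubb3 of 0.27, 0.65 and 0.02. Mesoderm and streak genes changed in 2 of 19 measured cases: Twist1 (1.53 ± 0.33) rose and Tcf15 (-1.09 ± 0.28) fell. Of 7 measured genes of the 2-cell stage list 3 fell, Usp17lc (-1.45 ± 0.29), Tcstv1 (-1.18 ± 0.24) and Usp17la (-1.09 ± 0.25), from high day 2 levels of 2.86 ± 0.18, 4.04 ± 0.15 and 3.87 ± 0.16. The Usp17l genes are close copies of each other.

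**Figure D2:**
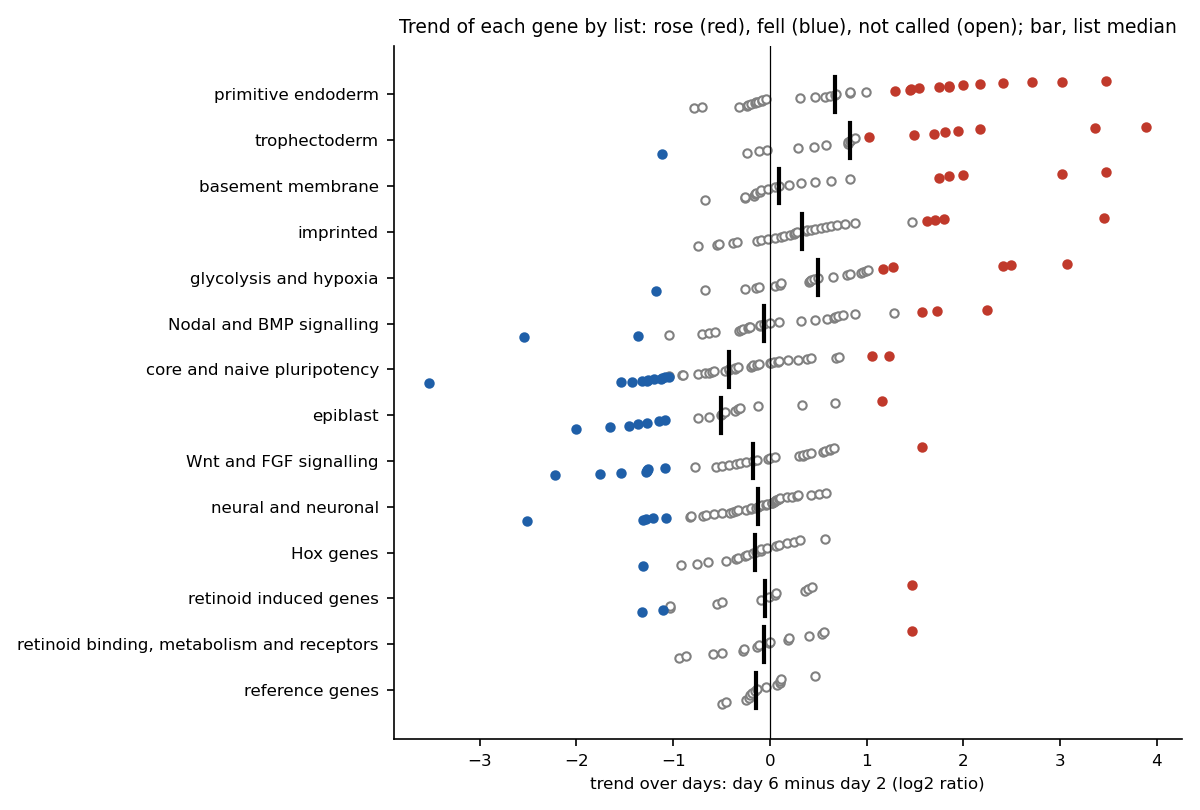
Trend from day 2 to day 6 (log2 ratio, horizontal axis) of each measured gene in 14 lists (rows). Red points rose and blue points fell at an adjusted p under 0.05, open points were not called, and the black bar is the median of the list, 0.68 for primitive endoderm and -0.42 for core and naive pluripotency.

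Markers of further cell types were examined as well. Among 8 measured blood and endothelium genes and 8 heart and skeletal muscle genes none rose or fell. Among 8 measured fibroblast markers 3 rose, Col3a1 (2.11 ± 0.41), Twist1 (1.53 ± 0.33) and Col1a1 (1.50 ± 0.39), while Thy1, Pdgfra and Pdgfrb had trends of -0.46 ± 0.27, -0.08 ± 0.24 and 0.41 ± 0.25. A second Thy1 probe had an uncalled trend of 0.68 ± 0.28. The fibroblast list had median log ratios of 0.13, 1.10 and 1.29 on the 3 days. Whether a change in cell makeup takes part in any group above was not tested. Of 44 measured cell cycle genes 2 rose, Cdkn1c (1.62 ± 0.26) and Ccnd2 (0.93 ± 0.25), and 1 fell, Gadd45a (-1.18 ± 0.25). Over all genes 2.25% rose and 1.67% fell. Of 39 measured chromatin genes 2 rose, Hmga2 (1.26 ± 0.33) and Ezh1 (1.13 ± 0.26), and 2 fell, Dnmt3l and Jarid2.

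Probes were then sorted by the shape of their course, from the day means of a fit of all 18 two-colour arrays. On day 2, 3539 of 14655 probes (24.1%) were called against untreated cells, 2020 higher (13.8%) and 1519 lower (10.4%). On day 4 there were 4687 (32.0%), 2484 higher (16.9%) and 2203 lower, and on day 6, 6261 (42.7%), 3341 higher (22.8%) and 2920 lower (19.9%). Without the dye term the counts were 994, 1515 and 2329. With the arrays scaled to one spread they were 2993, 5019 and 4891, so that day 6 no longer exceeded day 4. Leaving out array 1 or array 2 of day 4 left 2642 or 2694 on day 4, and leaving out array 1 or 2 of day 6 left 3636 or 3204 on day 6. A class held 586 probes, and 14069 belonged to none. The classes are defined by the values they describe and carry no test.

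The early class held 98 probes raised and 21 lowered on day 2 whose log ratio on day 6 was at most 0.5 of that on day 2. A called trend, which this class does not require, was seen in 53 of the 98 and in 7 of the 21. Its raised probes had median log ratios of 1.34, 0.65 and 0.28 on the 3 days. After Csn3, the highest on day 2 were Usp17lc (2.86, 1.75 and 1.41), the transcription factor Zfp423 (2.82, 1.27 and 0.60), the nucleoside diphosphate kinase gene Nme4 (2.65, 0.37 and 0.80) and Thbs1 (2.31, 1.44 and 0.27). Zfp423 had log ratios of 2.63 and 3.01 on day 2, 1.32 and 1.23 on day 4, and 0.86 and 0.33 on day 6, and its days did not overlap. Nme4 was high on day 2 and below 1 by day 4. The lowered probes included Slc17a9 (-1.70, -1.25 and -0.62), a nucleotide transporter of vesicles, the fatty acid binding protein Fabp3 (-1.66, -1.34 and 0.14) and Egln3 (-1.43, -1.40 and -0.46), an oxygen sensor.

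The steady class held 115 raised and 47 lowered probes whose 3 day means lay within 0.5 of each other. The highest were the small GTPase Rhob (2.30, 2.63 and 2.40), the tetraspanin Tspan9 (2.19, 2.62 and 2.40), the ephrin Efnb1 (2.07, 2.27 and 2.26) and the clotting factor receptor F3 (2.27, 2.10 and 2.08). The lowest were Otx2 (-2.09, -2.43 and -2.46), Fgf4, the germ cell gene Morc1 (-2.08, -1.77 and -1.95) and the septin gene Septin1 (-1.84, -1.78 and -2.07). Median log ratios were 1.37, 1.53 and 1.45 for the raised probes and -1.28, -1.41 and -1.36 for the lowered ones.

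The growing class held 64 raised and 30 lowered probes that moved away from untreated cells at each step, with medians of 0.88, 1.67 and 2.33 for the raised and -0.85, -1.62 and -2.19 for the lowered. Besides H19, Col4a1 and Rhox6 it held Smim7 (1.59, 4.01 and 4.36), the carbonic anhydrase Car4 (2.30, 2.70 and 3.47) and Tmem37 (1.08, 2.09 and 3.43) among the highest, and after Trh and Pim2 the meiosis gene Hormad1 (-1.58, -2.56 and -2.82), Ldhb and the arginine transporter Slc7a3 (-1.50, -2.51 and -2.64) among the lowest. The late class, not called on day 2, held 111 raised and 46 lowered probes. After Rhox9 and Lama1 its highest were the RNA export factor Nxf7 (0.41, 2.00 and 3.55), the epidermal protein gene Sbsn (0.20, 1.45 and 3.27), the lysosomal protease Lgmn (0.20, 1.59 and 2.69) and the secreted trypsin inhibitor Spink1 (-0.18, 0.35 and 2.54). Sbsn had log ratios of 0.02 and 0.38 on day 2, 1.22 and 1.69 on day 4, and 3.12 and 3.43 on day 6, in order of the days on both arrays. Spink1 had 0.17 and -0.53 on day 2, 0.87 and -0.17 on day 4, and 2.98 and 2.10 on day 6, a rise that lay after day 4. Its lowest after Ina were Dnmt3l, Zic2 and the fatty acid transporter Slc27a2 (0.00, -1.54 and -1.77).

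The reversing class held 27 probes that went from below to above untreated cells and 21 that went the other way. Its largest falls after Gbx2 and Lefty1 were the interferon-induced GTPase Irgm1, the gap junction gene Gja1, Noct and the receptor Epha2. Gja1 had log ratios of 1.40 and 1.30 on day 2, -0.13 and -0.27 on day 4, and -0.70 and -0.96 on day 6, above 1 on both day 2 arrays and below 0 on all others (trend -2.18 ± 0.27, adjusted p = 0.000367). Both Epha2 probes behaved alike, with trends of -1.87 ± 0.30 and -1.81 ± 0.29. Its largest rises besides Ndrg1 and Bnip3 were the placental surface gene Plet1, the galectin Lgals3 (-1.36, -1.11 and 0.90) and the endoplasmic reticulum receptor Kdelr3 (-0.64, -0.16 and 1.06). Plet1 had -0.35 and -1.10 on day 2, 0.10 and -0.01 on day 4, and 1.99 and 1.82 on day 6 (trend 2.63 ± 0.30, adjusted p = 0.000136). The transient class held 6 probes, 1 raised on day 4, Anxa6 (0.27, 1.14 and 0.43), and 5 lowered, among them the clock-linked repressor Bhlhe40 (-0.08, -1.21 and -0.28) and Nanog; the second probe of its member Eif4a2 went otherwise.

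**Figure D3:**
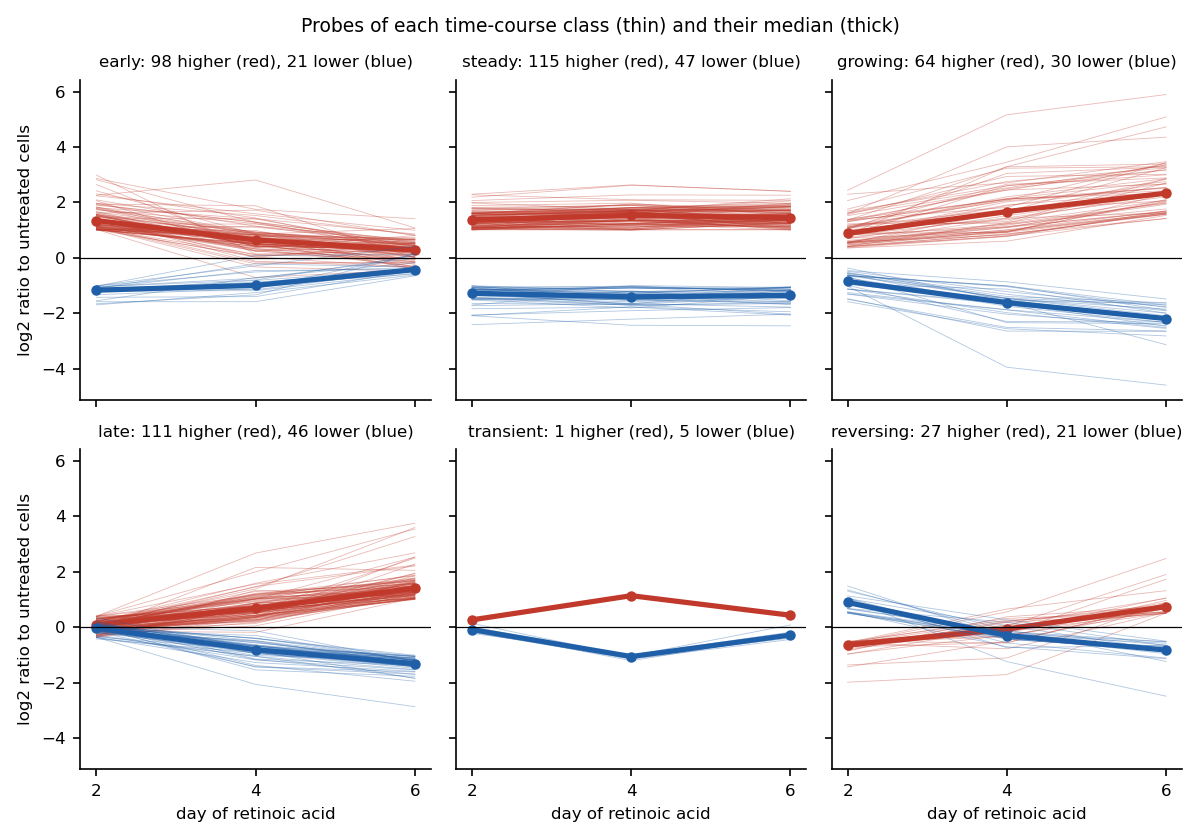
Fitted log2 ratio to untreated cells (vertical axis) on days 2, 4 and 6 for every probe of the 6 classes, one panel each. Thin lines are probes, thick lines with circles their median, red for the raised and blue for the lowered direction (in the reversing panel, red rises and blue falls); the raised growing probes have medians of 0.88, 1.67 and 2.33.

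Steps between days were called less often than levels. From day 2 to day 4, 556 probes (3.79%) changed, 264 up (1.8%) and 292 down (1.99%), and from day 4 to day 6, 326 (2.22%) changed, 216 up (1.47%) and 110 down (0.751%). Scaling the arrays to one spread turned the first split to 306 up and 265 down and the second to 90 up and 100 down. Curvature, day 4 against the mean of the outer days, was called for 157 probes (1.07%). Without the dye term the counts were 35, 14 and 3. For the first step the count was 1475 without array 2 of day 2, and 194 and 261 without array 1 and array 2 of day 4. For the second step it was 1214 without either array of day 2, 65 and 215 without array 1 and array 2 of day 4, and 85 and 59 without those of day 6. For curvature it was 1586 without array 2 of day 2, 22 and 40 without array 1 and array 2 of day 4, and 71 and 69 without those of day 6.

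The RNAi arrays give a measure of the class genes that took no part in choosing them. Each gene was read there from 1 probe set, the one with the highest mean. With Pou5f1 RNAi 25.7% of the 9975 genes on both platforms stood above the vector and 24.5% stood below it, and with Nanog RNAi 15.5% stood above and 11.5% below. Most genes of the growing and steady lowered classes were lower after Pou5f1 RNAi as well. In the growing, lowered class 26 of 28 genes were called lower and none higher (median -1.77). In the steady, lowered class 32 of 38 were called lower (median -1.21). Most genes of the raised growing and late classes were higher, 40 of 58 of the growing, raised class (2 lower, median 1.07) and 62 of 92 of the late, raised class (12 lower, median 0.66). The early, raised class had 34 of 84 higher and 15 lower, with a median of 0.09. The median over all 9975 genes was -0.03. After Nanog RNAi 10 of 28 genes of the growing, lowered class were lower and 4 higher. There the steady, lowered class had 22 of 38 lower and 4 higher, and the late, lowered class 7 of 40 lower and 8 higher. The growing, raised class had 26 of 58 higher and 2 lower after Nanog RNAi, and the late, raised class 24 of 92 higher and 14 lower.

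Rhox6 and Rhox9 were 7.29 ± 0.15 and 6.03 ± 0.13 on the log2 scale after Pou5f1 RNAi, and Trh was -3.64 ± 0.09. Lama1 and Spink1 went against their class and were lower after Pou5f1 RNAi, at -1.81 ± 0.11 and -2.56 ± 0.13. Of the 19 genes of the reversing, lowered class 10 were called lower and 3 higher after Pou5f1 RNAi, and 10 higher and 1 lower after Nanog RNAi. In that class Lefty1 was -2.75 ± 0.10 after Pou5f1 RNAi and 0.12 ± 0.09 after Nanog RNAi. Class genes share arrays and cells with each other, and no test was made over a class.

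**Figure D4:**
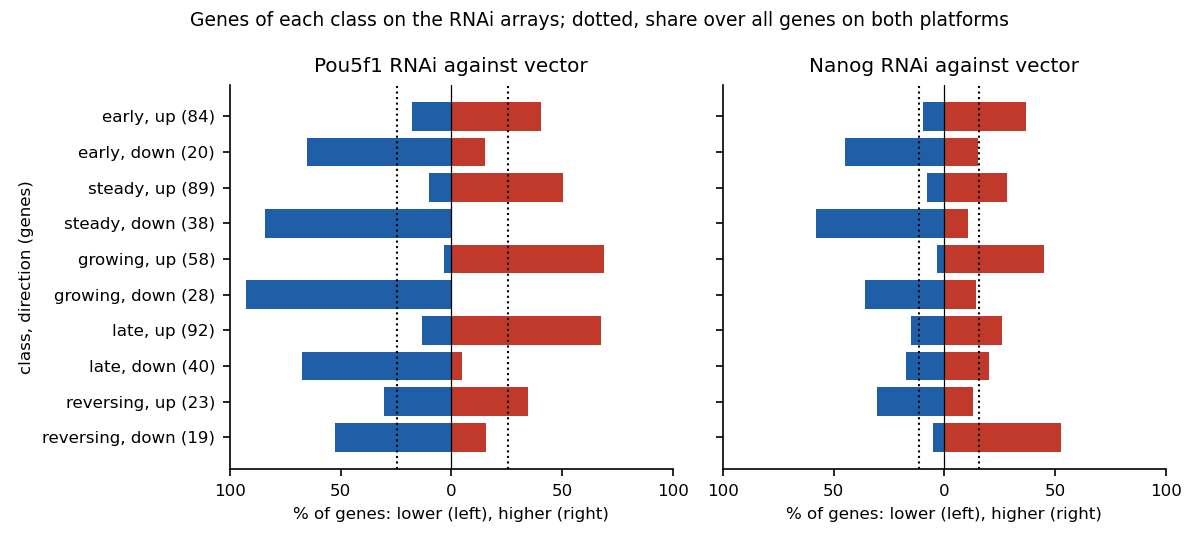
Share of the genes of each class (rows, number of genes in brackets) called above the vector (red, right) or below it (blue, left) with Pou5f1 RNAi and with Nanog RNAi, in percent on the horizontal axis. Dotted lines give the shares over all 9975 genes on both platforms, 25.7% and 24.5% for Pou5f1 RNAi and 15.5% and 11.5% for Nanog RNAi.

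The course with retinoic acid was set against that with the other inducers, which ran over the same days, also against untreated cells. The untreated reference was taken to be the same on all 18 arrays. For 231 of 10763 probes with a value on all 18 arrays (2.15%) the change from day 2 to day 6 differed from that with DMSO, 124 upward (1.15%) and 107 downward (0.994%). For 185 (1.72%) it differed from that with HMBA, 93 upward (0.864%) and 92 downward (0.855%). Without the dye term 12 and 6 probes were called. With both orientations averaged limma called 0 probes in either comparison, with 421 and 387 at an unadjusted p under 0.05; that fit holds straight lines only.

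Rhox6 and Rhox9 rose more with retinoic acid than with DMSO, and their difference from HMBA was not called. With DMSO the log ratios of Rhox6 were -0.18 and -0.52 on day 2, -0.07 and -0.60 on day 4, and 0.18 and -0.64 on day 6, between -1 and 1 on every array. With HMBA they were -0.09 and -0.65 on day 2, 1.14 and 0.39 on day 4, and 4.47 and 3.76 on day 6, a rise that lay mostly after day 4. The change with retinoic acid exceeded that with DMSO by 3.77 ± 0.25, adjusted p = 4.5e-07, and its difference from HMBA was -0.60 ± 0.25, adjusted p = 0.372. For Rhox9 the differences were 3.74 ± 0.34, adjusted p = 8.67e-06 for DMSO and -0.14 ± 0.34, adjusted p = 0.96 for HMBA. Secretin, the gut hormone gene Sct, exceeded DMSO by 3.11 ± 0.29, adjusted p = 1.08e-05 and HMBA by 0.94 ± 0.29, adjusted p = 0.138.

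Lama1 rose more with retinoic acid than with either other inducer. With DMSO its log ratios were -0.59 and -0.79 on day 2, -0.43 and -0.86 on day 4, and -0.20 and -0.66 on day 6. With HMBA they were -0.37 and -0.69 on day 2, -0.76 and -1.08 on day 4, and -0.26 and -0.82 on day 6. Every array of both was below 0, against 3.61 and 3.59 with retinoic acid on day 6. The differences were 3.22 ± 0.27, adjusted p = 5.07e-06 for DMSO and 3.48 ± 0.27, adjusted p = 2.66e-06 for HMBA. Twist1, a mesenchymal transcription factor, had day means of 1.76, 3.24 and 3.29 with retinoic acid, 0.44, 0.30 and 0.24 with DMSO and 0.74, -0.31 and 0.06 with HMBA, and exceeded HMBA by 2.21 ± 0.27, adjusted p = 0.00024. Me1, the malic enzyme, had 0.59, 0.59 and 2.30 with retinoic acid and 1.39, 0.26 and -0.44 with HMBA, and exceeded HMBA by 3.54 ± 0.33, adjusted p = 1.28e-05.

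Other genes rose less, or fell, with retinoic acid. Crabp1 stayed high with retinoic acid, whereas with HMBA its log ratios were -0.72 and -0.68 on day 2, -0.39 and -0.23 on day 4, and 2.05 and 2.22 on day 6. Both day 6 arrays of HMBA stood above its earlier ones and below those of retinoic acid on day 6, and the difference of the courses was -3.43 ± 0.28, adjusted p = 2.66e-06. Sp5, a Wnt target, had 1.44, 1.40 and 0.41 with retinoic acid and 0.10, 0.16 and 1.83 with DMSO, a difference of -2.77 ± 0.33, adjusted p = 0.00013. Lefty1 differed from DMSO by -2.64 ± 0.30, adjusted p = 0.00011: with DMSO its log ratios were -1.07 and -0.56 on day 2, 0.50 and 0.97 on day 4, and -0.63 and -0.80 on day 6. They were about as low on day 6 as on day 2, with a higher day 4. Trh, the largest fall, had day means of -0.51, -4.71 and -4.39 with DMSO, went from -1.12 on day 2 to -4.83 on day 6 with HMBA, and had differences of 0.31 ± 0.22, adjusted p = 0.766 and 0.13 ± 0.22, adjusted p = 0.924. A difference that was not called does not show that the inducers acted alike.

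**Figure D5:**
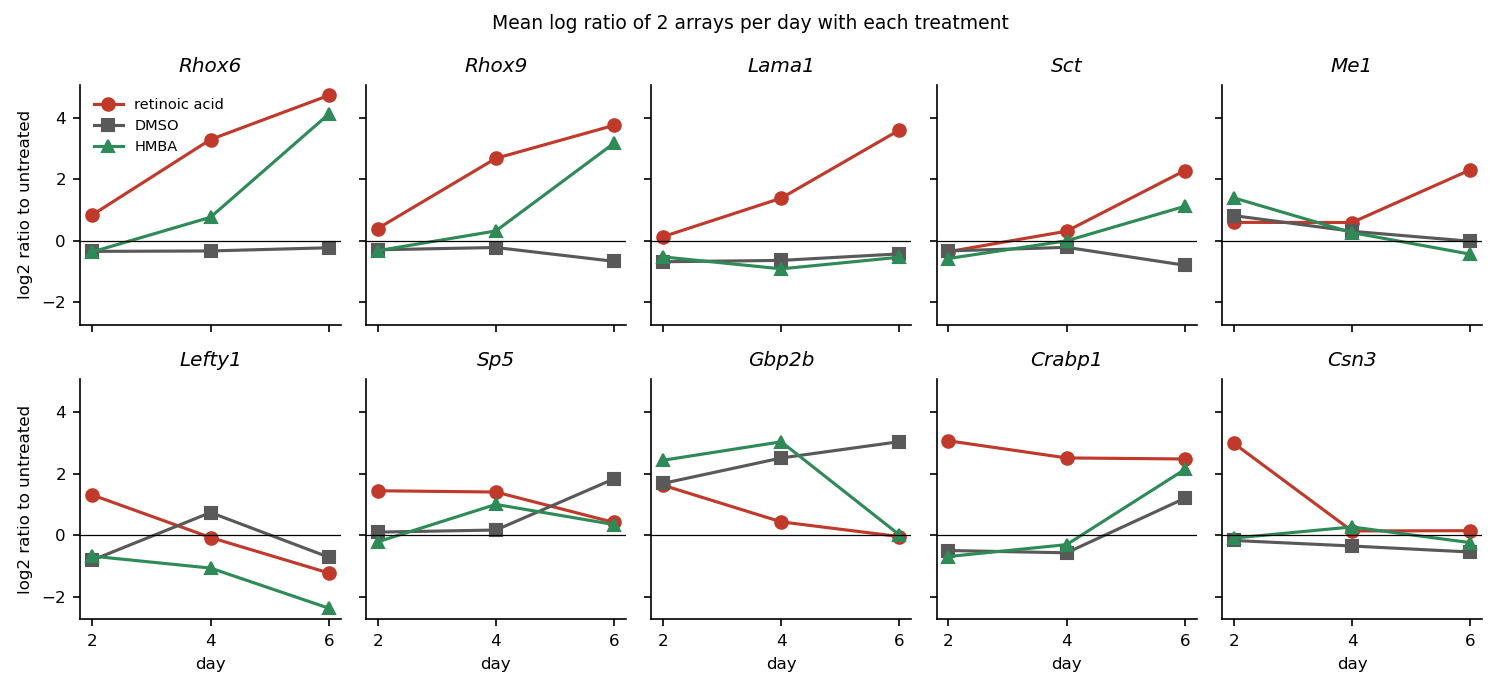
Mean log2 ratio to untreated cells of the 2 arrays of a day (vertical axis) on days 2, 4 and 6 with retinoic acid (red circles), DMSO (grey squares) and HMBA (green triangles) for 10 genes named in the comparison of inducers. Rhox6 ends at 4.73 with retinoic acid, 4.12 with HMBA and -0.23 with DMSO, and Lama1 is raised with retinoic acid.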

How the data were processed

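RNA of E14TG2a cells was measured on custom 2-colour arrays (18) and on single-colour oligonucleotide arrays (14). The authors deposited log ratios of sample over untreated reference, turned to 1 direction per the labels, with each array's median at 0; their base is not stated and was taken as log2. For the RNAi arrays the authors deposited RMA log2 values, per the submitters' processing notes. Limma 3.58.1 in R 4.3.3 gave the trend (day and dye orientation; 6 arrays, 14655 probes with a value on all 6, 3 residual degrees of freedom), the day levels, steps and curvature (9 treatment and day means and dye over all 18 arrays), the slope differences (10763 probes on all 18 arrays) and RNAi against vector, each with Benjamini-Hochberg adjustment over all features; calls are at 0.05. Missing values were not imputed, so the day fit of a probe can rest on fewer than 18 arrays. Tests of day levels run against 0, the untreated reference, and leave out that reference's own spread.

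Dye orientation is the replicate number of the labels. The difference of the arrays of a day correlated between days at 0.50 (days 2 and 4), 0.79 (days 2 and 6) and 0.78 (days 4 and 6), so the numbers pair the arrays and the dye term is part of the main fit. Of 21106 probes 16345 have 1 gene name, 125 several and 4636 none; 15730 names were updated through Entrez identifiers, 5 through accessions, and 610 were kept. A list gene was measured by its probe with the most values on the 18 arrays. Named genes were the 15 largest rises and 15 largest falls among called probes of named genes, the 6 with the largest level per class and direction, the 4 list members with the smallest p each way, and the 5 largest slope differences each way. Other list members named are background examples chosen with their values known. The members, the 27 gene lists and the classes were chosen with earlier results of these data known.

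An early gene was called on day 2 at 1 or more and at most 0.5 of that level on day 6; a steady gene was called at 1 or more on all days within a range under 0.5; a growing gene was called on days 2 and 6, moved further on each day, by at least 1 in all, and had a called trend. A late gene was under 0.5 and not called on day 2, called at 1 or more on day 6, and had a called trend; a transient gene was called on day 4 at 1 or more with called curvature and lay under 0.5 on days 2 and 6; a reversing gene was called with opposite signs at 0.5 or more on days 2 and 6. The fits were tested on simulated data with known changes. Promoter windows and their gene names are from RefSeq (GRCm38.p6). Python 3.11.15 with pandas 2.3.3 made the tables.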

Additional observations from a re-analysis of the deposited data

Results flagged for a closer look

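The course of 231 probes from day 2 to day 6 differed between retinoic acid and DMSO, and that of 185 between retinoic acid and HMBA, each by limma's test of the difference of the slopes. Against DMSO the largest excess with retinoic acid was of Rhox6 (3.77), Rhox9 (3.74), Lama1 (3.22), the fatty acid binding protein gene Fabp3 (3.20) and Sct (3.11). Fabp3 had day means of -1.66, -1.34 and 0.14 with retinoic acid and -1.33, -2.01 and -2.73 with DMSO. The largest shortfall was of the guanylate-binding protein gene Gbp2b (-3.03), Sp5 (-2.77), Lefty1 (-2.64), the cornified envelope gene Sprr2b (-2.63) and the kinase gene Nuak1 (-2.55). Gbp2b had day means of 1.62, 0.43 and -0.05 with retinoic acid and 1.68, 2.51 and 3.04 with DMSO, whereas Nuak1 was high throughout with retinoic acid (3.59, 3.18 and 2.96) and rose with DMSO (0.19, 2.14 and 2.11).

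Against HMBA the largest excess was of Me1 (3.54), Lama1 (3.48), Igfbp3 (2.58), the haem oxygenase gene Hmox1 (2.27) and Twist1 (2.21). Hmox1 had day means of 0.46, -0.62 and 0.29 with retinoic acid and 2.64, -1.02 and 0.19 with HMBA, the HMBA course being highest on day 2. The largest shortfall was of Crabp1 (-3.43), Csn3 (-2.70), Zfp423 (-2.39), the tubulin gene Tuba4a (-2.15) and the receptor inhibitor gene Errfi1 (-1.88). Tuba4a had day means of -0.28, 0.46 and -0.76 with retinoic acid and -1.04, -0.09 and 0.63 with HMBA. A second Tuba4a probe had day means of -1.08, -1.82 and -1.41 with retinoic acid, so the course given rests on 1 of 2 probes that differ.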

How the results depend on the processing

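The trend count of 494 was 6 with no replicate block (the dye term left out), 1713 in a fit of all 18 arrays, 905 with day as 3 levels, 118 with arrays scaled to one spread, 276 after quantile normalisation and 71 to 2963 with single arrays left out; it stayed within 1.5 times with at least 5 arrays, averaged orientations or 1 probe a gene. Without the block, day levels were called for 994, 1515 and 2329 probes, steps for 35 and 14, curvature for 3, slope differences for 12 (DMSO) and 6 (HMBA), and the growing, late, transient and reversing classes held 1, 3, 0 and 15 probes. The 6 retinoic acid arrays alone gave 315 and 188 steps and 97 curved probes. Scaled arrays gave 190 probes for the second step and 97 steady, 13 growing, 40 late, 12 transient and 26 reversing probes. Averaged orientations gave 0 slope differences in either comparison (421 and 387 at an unadjusted p under 0.05). With single arrays left out, day levels ranged over 3351 to 3897, 2642 to 5602 and 3204 to 7376, the steps over 194 to 1475 and 59 to 1214, and curvature over 22 to 1586. Leaving out either DMSO day 4 array, chosen after its low number of values was seen, gave 259. The causes were not tested. Of the 30 genes with the largest trends all kept their direction in each setting; 24 lost their call without the block, 4 with scaled arrays, 3 without array 2 of day 2 and 1 without array 1 of day 6. With 2 arrays a day the number of arrays limits the precision, and an untreated time course was not analysed here.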
